A study of Mus musculus with 49 samples.

Results

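Early S is the stretch of the cell cycle in which a cell has just begun to copy its DNA. The cells described here are the 368 diploid mouse embryonic stem (ES) cells grown in serum that the authors placed in early S, out of 859 serum cells that passed their quality control and 1175 serum cells listed. They were selected on the authors' quality flag and phase name. In the whole series 4098 of 5871 listed cells passed. The study measured contacts between chromosome segments by Hi-C in single ES cells of a diploid and a haploid line and, by its title, asks how chromosome organisation changes through the cell cycle. All 368 cells come from 1 line, an F1 hybrid made by crossing 129/SV-Jae with castaneus mice. They were cultured with fetal bovine serum on feeder cells, which were then depleted, and Oct-3/4-positive cells were sorted after formaldehyde fixation. Early-S cells of the same line in 2i medium, which lacks serum, holds kinase inhibitors that keep ES cells undifferentiated and was used without feeders, and of the haploid line H129-1 in serum serve as comparisons. The medium of each cell is known from the table it stands in and the condition names, and the serum cells carry the condition names 1CDS1 and 1CDS2, which the labels do not explain. The haploid serum cells are labelled G1/S, and how they were sorted is not described here. The tables hold no gene, so ES cell and feeder markers could not be checked.

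In Hi-C, DNA ends that lie close together in a fixed nucleus are joined and sequenced, so that each joined pair counts as a contact. Mammalian chromosomes fold into domains whose borders are crossed by few contacts, which is called insulation, and into active and inactive compartments that each prefer their own kind. Replication starts in active, gene-rich chromatin and reaches inactive chromatin late, which is why the copy number of early-replicating DNA can mark the progress of a cell through S phase.

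The deposited table gives 9 folding columns per cell. The near-band share and the mitotic-band share are the percentages of contacts within bands of distances along the chromosome whose limits are not stated. The far distance is the mean distance of far contacts, the insulation score describes domain borders, and the cis and trans compartment scores describe compartments within and between chromosomes. The trans share is the percentage of contacts between chromosomes. The alignment score belongs to contacts between chromosomes by its column name, and the replication score to replication. The scores have no stated definition, so they are compared here only within the serum table. An order of cells, from 153 to 520 for early S, places each cell within the phase. It ranked the cells as the sum of the standardised near-band share and replication score did (Spearman's rank correlation = 1.00 when rounded, over 368 cells), so the course of these 2 columns along the order is set by its construction.

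The 368 cells lie in 8 libraries, named here by the numbers of the labels. Library 1_6 held 11 early-S cells, 2_14 held 41, 3 held 91, 4 held 98, 5_10 held 52, 7 held 18, 8 held 21 and 9 held 36. Libraries 3 and 4 thus gave 24.7% and 26.6% of the cells. Libraries 2_14, 3 and 4 held only 1CDS1 cells, 7, 8 and 9 only 1CDS2 cells, and 1_6 and 5_10 held both. The serum cells of 1_6 and of 5_10 carry 2 batch numbers each, joined here to 1 library. In 2_14 the serum cells carry 1 batch number and the 2i cells another. Each library was 1 sequencing lane, no lane held cells of 2 libraries of the serum table, and no pair of cells shared lane and barcodes. Separate cultures for the libraries are not stated, so each p-value measures only how far libraries of these data spread. An early-S cell had a median of 243906 contacts (20014 to 700060), and the early-S cells of a library summed to between 1690981 and 27399480 contacts.

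Early-S cells made up 42.8% of the serum cells that passed. Their share was far higher among 1CDS1 than 1CDS2 cells, 61.9% (exact Clopper-Pearson 95% interval 57.1% to 66.5%) of 428 against 23.9% (19.9% to 28.2%) of 431. In the libraries of 1 set it was 64.1%, 59.1% and 64.9% in 2_14, 3 and 4, and 22.8%, 19.3% and 22.4% in 7, 8 and 9. Within library 5_10 it was 58.3% (43.2% to 72.4%) of 48 1CDS1 cells and 34.3% (23.3% to 46.6%) of 70 1CDS2 cells. These intervals cover counting error only. Whether cells were sorted differently for the sets is not stated, and the shares describe the cells that entered the table.

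The replication score, set beside the phase name, exceeded that of nearly every G1 cell in most early-S cells. The authors' order uses this score within early S, and which columns entered the phases is not stated. The score is therefore no independent check of the name. Its median was 1.03 over 146 G1 cells, 1.2 over the early-S cells and 1.19 over 322 late-S/G2 cells, the phase that the authors placed next. Of the early-S cells, 272 (73.9%) lay above the 95th percentile of G1 cells, and 172 (46.7%) above the highest G1 cell. At or below the G1 median lay 12 cells (3.26%). Of these 12 cells, 11 were 1CDS2 cells, from libraries 5_10, 7 and 8, and 1 was a 1CDS1 cell from library 3. Their near-band shares ran from 62.4% to 75.8%, and they stood in the order between 153 and 274. Of the 12, 5 lay below the 5th percentile of the other 356 early-S cells in the near-band share. In the trans share and the alignment score it was 3 each, and in the far distance and insulation 2 each. In the mitotic-band share and both compartment scores it was 0. These 12 cells were singled out after their values were seen.

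The phases overlapped little in the near-band share. How the authors drew the phases is not stated in the sources used here, so both band shares are treated as if the grouping had used them and are given with no test. Early-S cells held 62.2% to 79.2%, G1 cells at most 63.9% and late-S/G2 cells at least 76.0%. Within the overlap with G1 lay 9 early-S and 11 G1 cells. Within the overlap with late S/G2 lay 76 early-S cells (20.7%) and 50 late-S/G2 cells (15.5%). The last 5 G1 cells by order had near-band shares of 58.9% to 63.5% and replication scores of 1.02 to 1.12, and the first 5 early-S cells 62.4% to 64.8% and 1.01 to 1.04. Their far distances differed more, 31.2 to 35.4 Mb in those G1 cells against 22.02 to 27.1 Mb in those early-S cells. The authors' order uses the far distance in 1 phase or another, and those 5 G1 cells all lay above the 95th percentile of G1, 30.8 Mb. The part of the order in this difference was not tested. The last 5 early-S cells had near-band shares of 75% to 79.1% and replication scores of 1.35 to 1.43, and the first 5 late-S/G2 cells 76.6% to 78.1% and 1.31 to 1.46. At that edge the ranges of both columns overlap.

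Library means of early-S folding lay close together in most columns, and furthest apart, against the spread over cells, in the trans share and the alignment score. Among the columns of distances along the chromosome, the library means of the near-band share ran from 70.0% through a median of 72.2% to 72.9%. Those of the mitotic-band share ran from 11.6% through 11.8% to 12.4%, and those of the far distance from 24.6 through 25.4 to 26.8 Mb. Library 7 had the lowest near-band share, the highest mitotic-band share and the longest far distance. The replication score had library means from 1.12 through 1.19 to 1.21, again with library 7 lowest.

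Domain insulation had library means from 2.30 in library 8 through a median of 2.34 to 2.43 in library 9, whose mean stood apart from the next, 2.36 in library 7. The cis compartment score ran from 0.114 in library 7 through 0.126 to 0.138 in library 1_6, and the trans compartment score from 0.0301 in library 7 through 0.0344 to 0.0402 in library 5_10. The trans share ran from 7.19% in library 3 through 7.66% to 9.61% in library 1_6. The alignment score was 0.327 to 0.330 in the 1CDS1 libraries 2_14, 3 and 4, 0.257 and 0.286 in the libraries of both sets, and 0.236 to 0.267 in the 1CDS2 libraries. In library 1_6 the 11 cells also had the fewest contacts per cell, 153726 against 190795 to 349367 elsewhere, and the highest duplicated share, 5.10% against 2.60% to 3.85%. The part of depth in its high trans share was not tested.

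**Figure D1:**
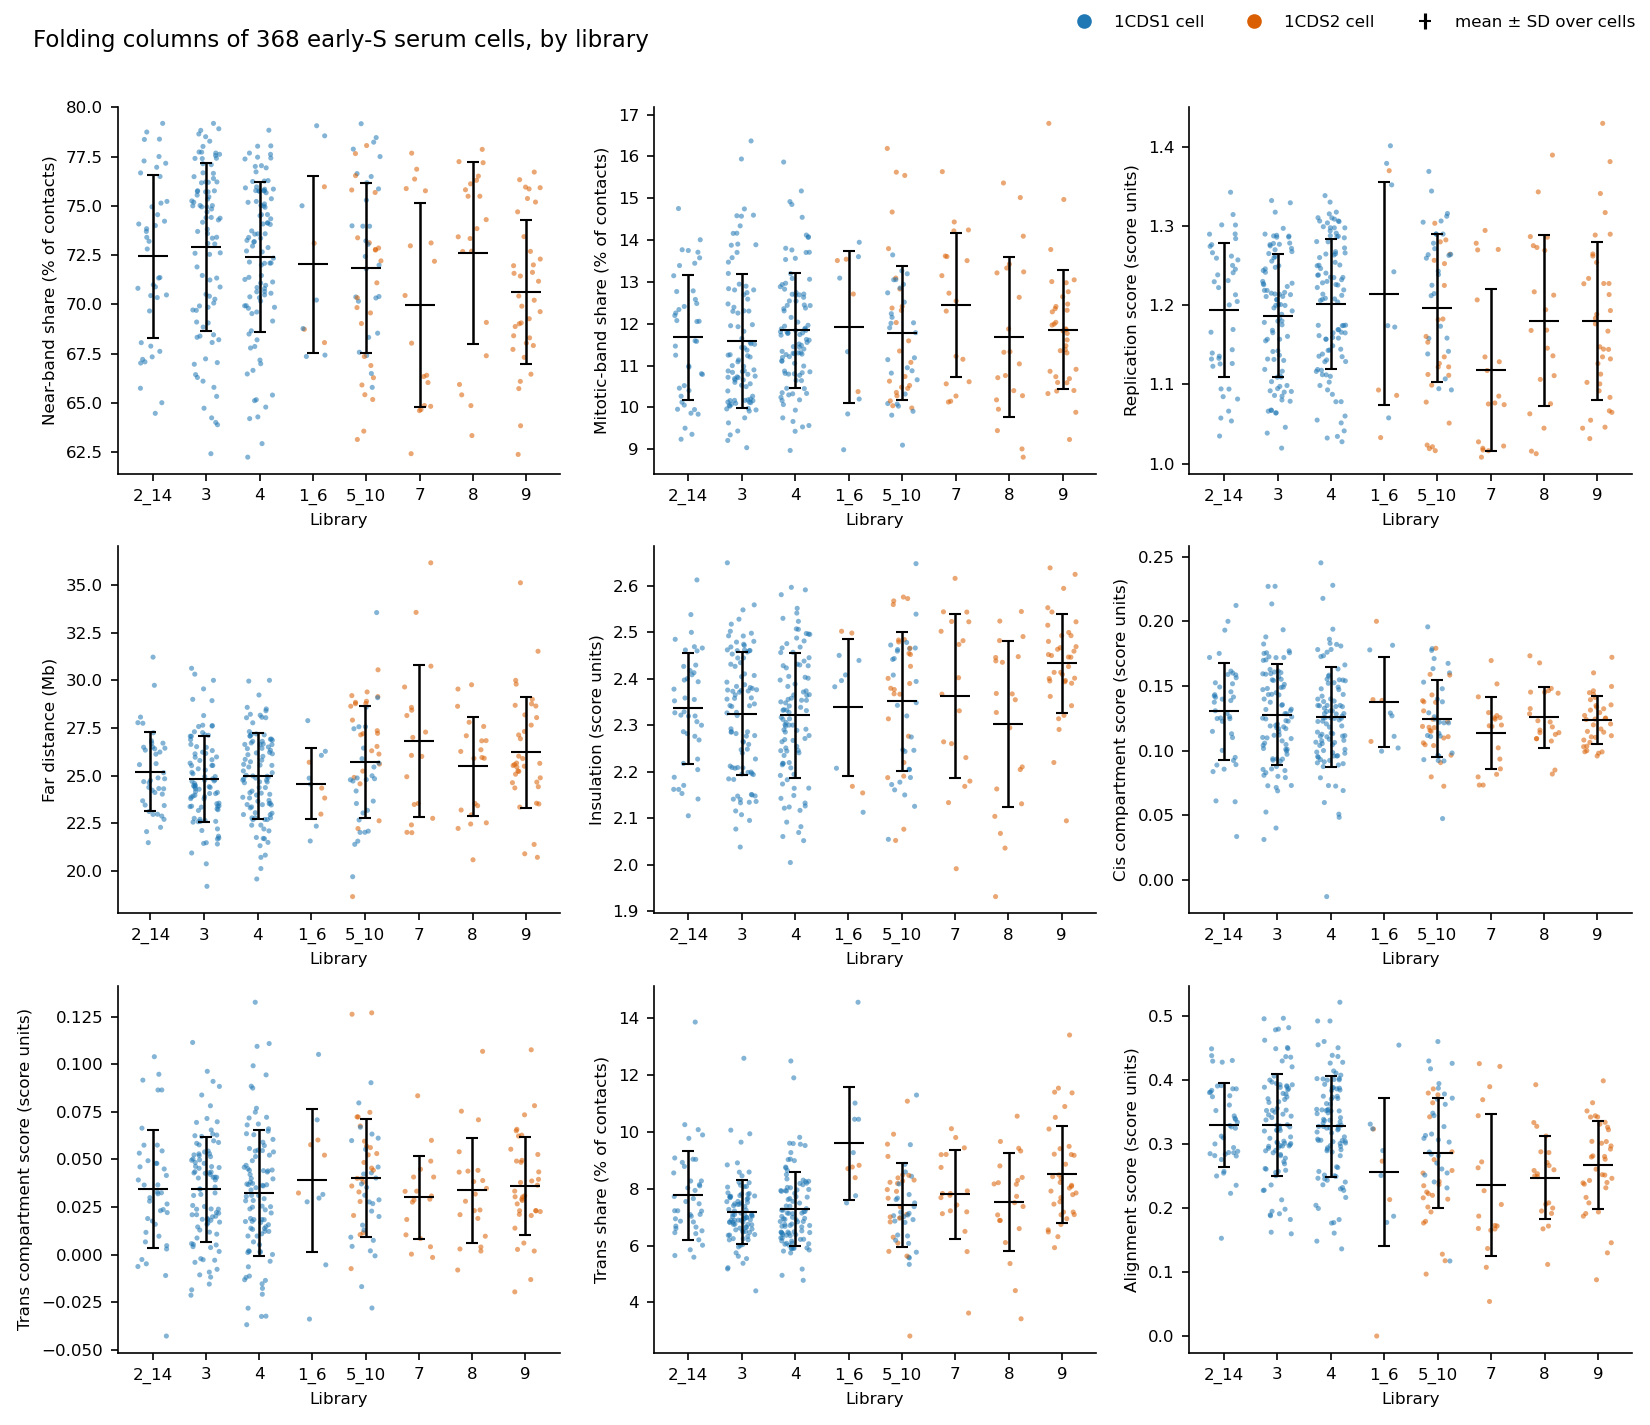
Each panel plots 1 folding column, in the unit on its vertical axis, for every early-S serum cell (1 point per cell, blue 1CDS1, orange 1CDS2) in its library on the horizontal axis, with the mean and SD over cells in black. In every panel the cells of a library spread over a wider range than the library means, and the alignment score is highest in libraries 2_14, 3 and 4 (0.327 to 0.330).

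Cells of 1 library differed from each other far more than libraries did. Libraries 1_6 and 5_10 each join 2 batch numbers and both sets, so differences between these count there as spread within a library. Libraries accounted for 14.8% of the variance of the alignment score and 12.5% of that of the trans share. They accounted for 4.62% for insulation, 3.77% for the far distance, 2.65% for the replication score and 2.23% for the near-band share, and the estimate was 0 for the mitotic-band share and both compartment scores. Given as the mean SD within a library and its range over libraries, the near-band share varied by 4.31 percentage points (3.65 to 5.16), the mitotic-band share by 1.62 (1.38 to 1.92) and the trans share by 1.56 (1.13 to 1.99). The far distance varied by 2.61 Mb (1.86 to 4.00), insulation by 0.143 (0.106 to 0.178) and the replication score by 0.0984 (0.0775 to 0.141). The alignment score varied by 0.0840 (0.0654 to 0.116), the cis compartment score by 0.0312 (0.0186 to 0.0389) and the trans compartment score by 0.0294 (0.0219 to 0.0374). The mean of the trans compartment score over libraries was 0.0350, hardly above that SD, and 39 cells (10.6%) lay below 0, as against 43 of 146 G1 cells (29.5%) and 33 of 322 late-S/G2 cells (10.2%).

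The spread over cells went with depth in the compartment scores and hardly at all in insulation or the trans share. The trans share is a share of the listed contacts, since its product with them was whole to within 0.02 in 81.5% of early-S cells and to within 0.15 in 99.2%. Counting error alone then gives a median SD of 0.0528 percentage points per cell, against a median SD within libraries of 1.57. For the scores, the spread around library means was compared between the 123 cells of fewest contacts (at most 165261) and the 123 of most (over 348532). The SD was 0.0429 against 0.0298 for the cis compartment score and 0.0353 against 0.0245 for the trans compartment score, a ratio of 1.44 each. For insulation it was 0.130 against 0.133, for the replication score 0.0885 against 0.0847 and for the alignment score 0.0853 against 0.0730. For the near-band share it was 3.99 against 4.21 percentage points and for the far distance 2.64 against 2.40 Mb.

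Set against its neighbouring phases, the cell-to-cell spread of early S had the ratio furthest from 1 in the replication score against G1, but none of the tested ratios of SDs passed after adjustment. For each of 7 libraries with at least 10 cells in both phases (all but 1_6), the SD in early S was divided by that in the neighbouring phase, and the log2 ratios were tested by an exact two-sided sign-flip test. Of 22 ratios tested, 0 (0%) passed an adjusted p of 0.05 (Benjamini-Hochberg), 8 had an unadjusted p under 0.05, and 6 had the same sign in every library. With 7 libraries the smallest exact p is 0.0156, and those 6 had an adjusted p of 0.0573. The replication score and the far distance, which the order uses, are in these counts, and their ratios are given as description. Without them 0 of 18 passed, 6 had an unadjusted p under 0.05 and the smallest exact adjusted p was 0.0703.

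Against G1, the SD of the replication score was 2.90 times as large in early S (1.51 to 8.56 over libraries, higher in 7 of 7). The highest ratio came from library 7, whose 10 G1 cells had an SD of 0.0119. Over all G1 cells the lowest score was 1.00 and the 75th percentile 1.04, so the G1 scores lay close together near their lowest value. The part of this in the ratio was not tested. The SD of the cis compartment score was 1.34 times as large (1.06 to 1.73), and that of the far distance 0.598 times as large (0.457 to 0.95), each with the same sign in 7 of 7 libraries. The order runs along different columns in different phases, so spread was also taken around a straight line along the order, an alternative chosen after seeing the data. The log2 ratio of the far distance then turned from -0.74 to 0.46, and that of the replication score went from 1.53 to 0.29. The near-band and mitotic-band shares, which the grouping may have used, had SDs 0.596 and 0.379 times those in G1, a description only. Insulation had 1.2 times the SD of G1 (higher in 5 of 7 libraries, exact adjusted p = 0.25), the trans share 1.02 times (0.669 to 1.43, exact adjusted p = 0.963) and the alignment score 0.850 times (0.622 to 1.42, exact adjusted p = 0.264).

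Against late S/G2, insulation had 1.49 times the SD in early S (1.12 to 2.26, 7 of 7 libraries, exact adjusted p = 0.0573). Around the line along the order that ratio was 0.22 on the log2 scale in place of 0.58 (exact adjusted p = 0.540). The trans compartment score had 0.841 times the SD (0.736 to 0.962, lower in 7 of 7, exact adjusted p = 0.0573). The trans share had 1.25 times the SD (0.942 to 1.55, 6 of 7, exact adjusted p = 0.0982), and the cis compartment score 0.751 times (0.467 to 1.18, lower in 6 of 7, exact adjusted p = 0.191). For the cis compartment score, the SDs in early S and late S/G2 were 0.0377 and 0.0389 in 2_14 and 0.0385 and 0.0387 in 4, but 0.0276 and 0.0432 in 7 and 0.0186 and 0.0398 in 9. The far distance and the alignment score had ratios of 1.00 and 0.999, with ranges of 0.646 to 1.73 and 0.790 to 1.52. The replication score had 1.29 times the SD of late S/G2, higher in 6 of 7 libraries, but less around the line along the order (log2 ratio -0.65). Its late-S/G2 SD was 0.0497, 0.0341 and 0.0585 in 2_14, 3 and 4. In 7, 8 and 9 it was 0.0982, 0.0975 and 0.0842, and in 5_10 0.116. Early-S SDs were 0.0775 to 0.0848, 0.0995 to 0.108 and 0.0937 in the same libraries. The late-S/G2 means were 1.31, 1.26 and 1.29 in 2_14, 3 and 4, but 1.13, 1.14 and 1.15 in 7, 8 and 9. The part of this in the pooled ratio was not tested.

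**Figure D2:**
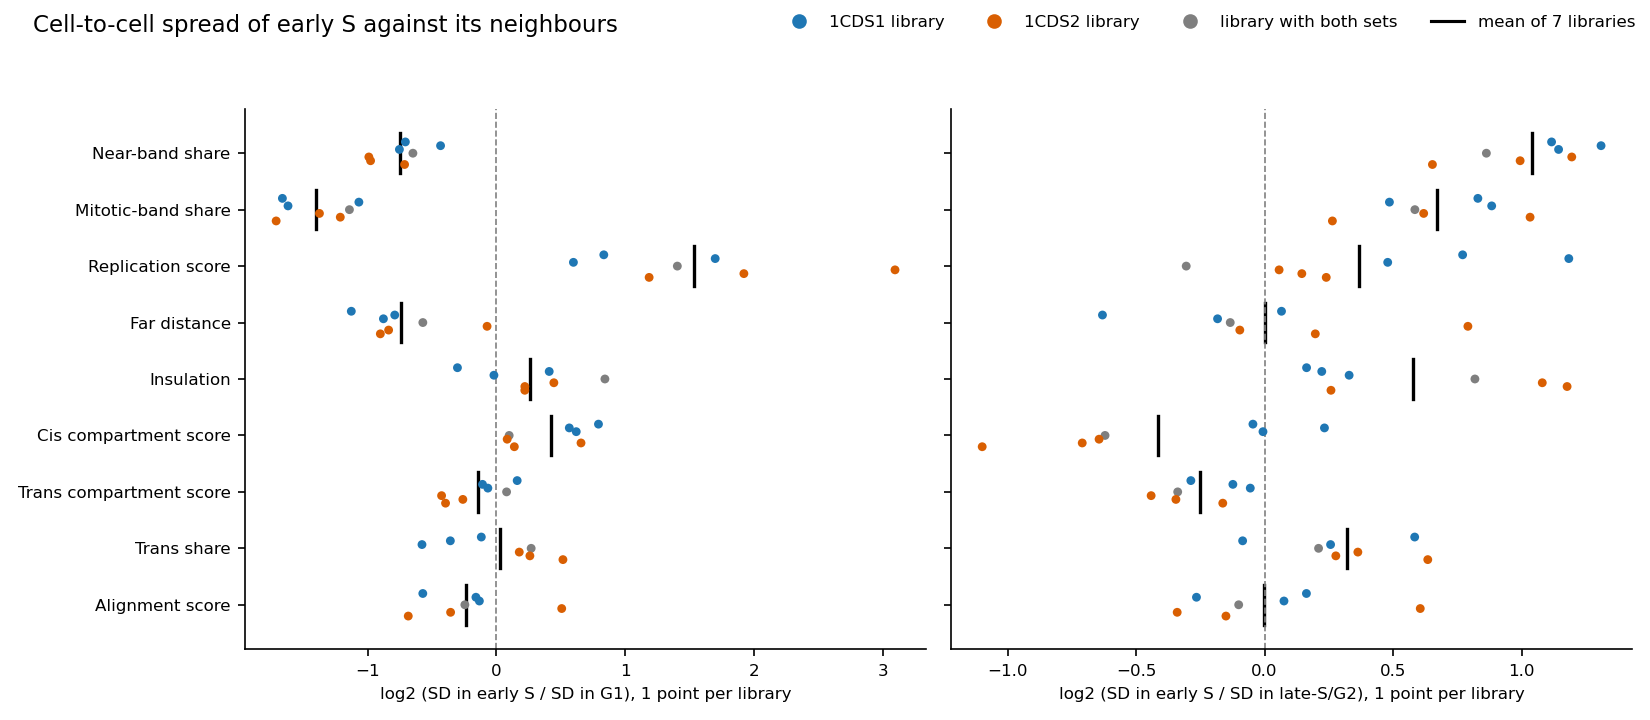
The horizontal axes give the log2 ratio of the SD over early-S cells to that over G1 cells (left) or late-S/G2 cells (right), 1 point per library and folding column, with the mean of 7 libraries as a black bar and equality as a dashed line. The replication score lies to the right of the line in all 7 libraries on the left (mean 1.53), and insulation in all 7 on the right (mean 0.58).

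In mean level, early S stood between its neighbours in some columns and apart from both in others. Differences within 7 libraries were tested by exact two-sided sign flips, and 10 of 22 (45.5%) passed an adjusted p of 0.05. Of these, 1 belongs to the duplicated share (2.70% in G1 and 3.01% in early S, higher in 7 of 7 libraries). Another 3 belong to the replication score and the far distance, which the authors' order uses in 1 phase or another, and are given as description only. An alternative added after seeing the data adjusted over the 18 tests of the columns that the order does not use. All 7 calls in those columns, the duplicated share and 6 in folding columns, still passed (exact adjusted p = 0.0402). Which columns entered the phases is not stated, so these differences may not be independent of the grouping. The trans share was highest in early S, 7.65% ± 0.442 (SD over 7 libraries) against 5.47% ± 0.477 in G1 and 6.16% ± 0.362 in late S/G2. The rise from G1 ran from 1.06 to 2.87 percentage points over libraries and the fall to late S/G2 from 0.433 to 2.90 points. In the mean over libraries, the alignment score was lowest in early S, at 0.289 ± 0.0405. It was 0.324 ± 0.0454 in G1 (early S lower in 7 of 7 libraries) and 0.316 ± 0.0191 in late S/G2 (early S lower in 6 of 7, exact adjusted p = 0.0982). The last 46 G1 cells by order had a lower alignment score, 0.248.

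The cis compartment score rose at both steps, from 0.0968 to 0.125 and on to 0.145, in 7 of 7 libraries each time. Insulation did not pass between G1 and early S, 2.34 against 2.35 (higher in 4 of 7 libraries, exact adjusted p = 0.567), and fell from there to 2.15 in late S/G2 in 7 of 7. The trans compartment score was 0.0169 in G1, 0.0345 in early S and 0.0390 in late S/G2, and neither step passed (exact adjusted p = 0.0573 and 0.138). All changes called here had an exact adjusted p of 0.0344. Leaving out any of the libraries 2_14, 3, 4, 5_10, 7, 8 or 9 left 0 calls, since 6 libraries allow no exact p below 0.0312, while every called change kept its direction.

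In the mean over libraries, the far distance was longest in early S, 25.6 Mb ± 0.715 against 23.4 Mb ± 1.12 in G1 and 23.8 Mb ± 0.661 in late S/G2. The last 46 G1 cells by order had a longer one, 27.9 Mb, but the order uses this column in 1 phase or another. The step out of early S differed in size between libraries. It was -0.859, -0.440 and -0.616 Mb in 2_14, 3 and 4, -1.96 Mb in 5_10, and -3.99, -1.80 and -3.29 Mb in 7, 8 and 9, so that the ranges of the 1CDS1 and 1CDS2 libraries did not overlap. It was not particular to the far distance. The same step did not overlap either for the near-band and mitotic-band shares, the replication, cis compartment and alignment scores and the coverage deviation of chromosomes. For the other columns, insulation and the trans share among them, the ranges overlapped. These differences between sets were not tested.

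Along the order through early S, insulation was lower in later windows, while trans contacts and compartment scores moved little against their spread over cells. The 368 cells were cut into 8 windows of 46 cells. Mean insulation was 2.44, 2.45, 2.41 and 2.40 in the first 4 windows, against 2.40 in the last 46 G1 cells, then 2.33, 2.29, 2.20 and 2.22, against 2.19 in the first 46 late-S/G2 cells. The SD within a window was 0.0867 to 0.134. In the same windows the replication score went from 1.06 to 1.31 and the near-band share from 65.2% to 77.2%, both as the order is built, and the mitotic-band share went from 13.8% to 10.1%.

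The windows of the other columns lay within about 1 SD over cells of each other. The trans share was 7.56% in the first window, highest in the second at 8.05% and 7.25% in the last, with SDs of 1.1 to 1.82 percentage points. It had been 6.42% in the last 46 G1 cells. The far distance was 26.1 Mb in the first window and 24.8 Mb in the last, after 27.9 Mb in the last G1 cells. The cis compartment score was 0.112 in the first window and 0.119 to 0.136 in the others, and the trans compartment score was 0.0287 in the first and 0.0337 to 0.0367 in the others. The alignment score lay between 0.279 and 0.329 without a steady course, after 0.248 in the last 46 G1 cells and before 0.283 in the first 46 late-S/G2 cells. Of the 46 cells of a window, 21 were 1CDS2 cells in the first and 8 in the last, so the pooled windows also shift in their sets.

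**Figure D3:**
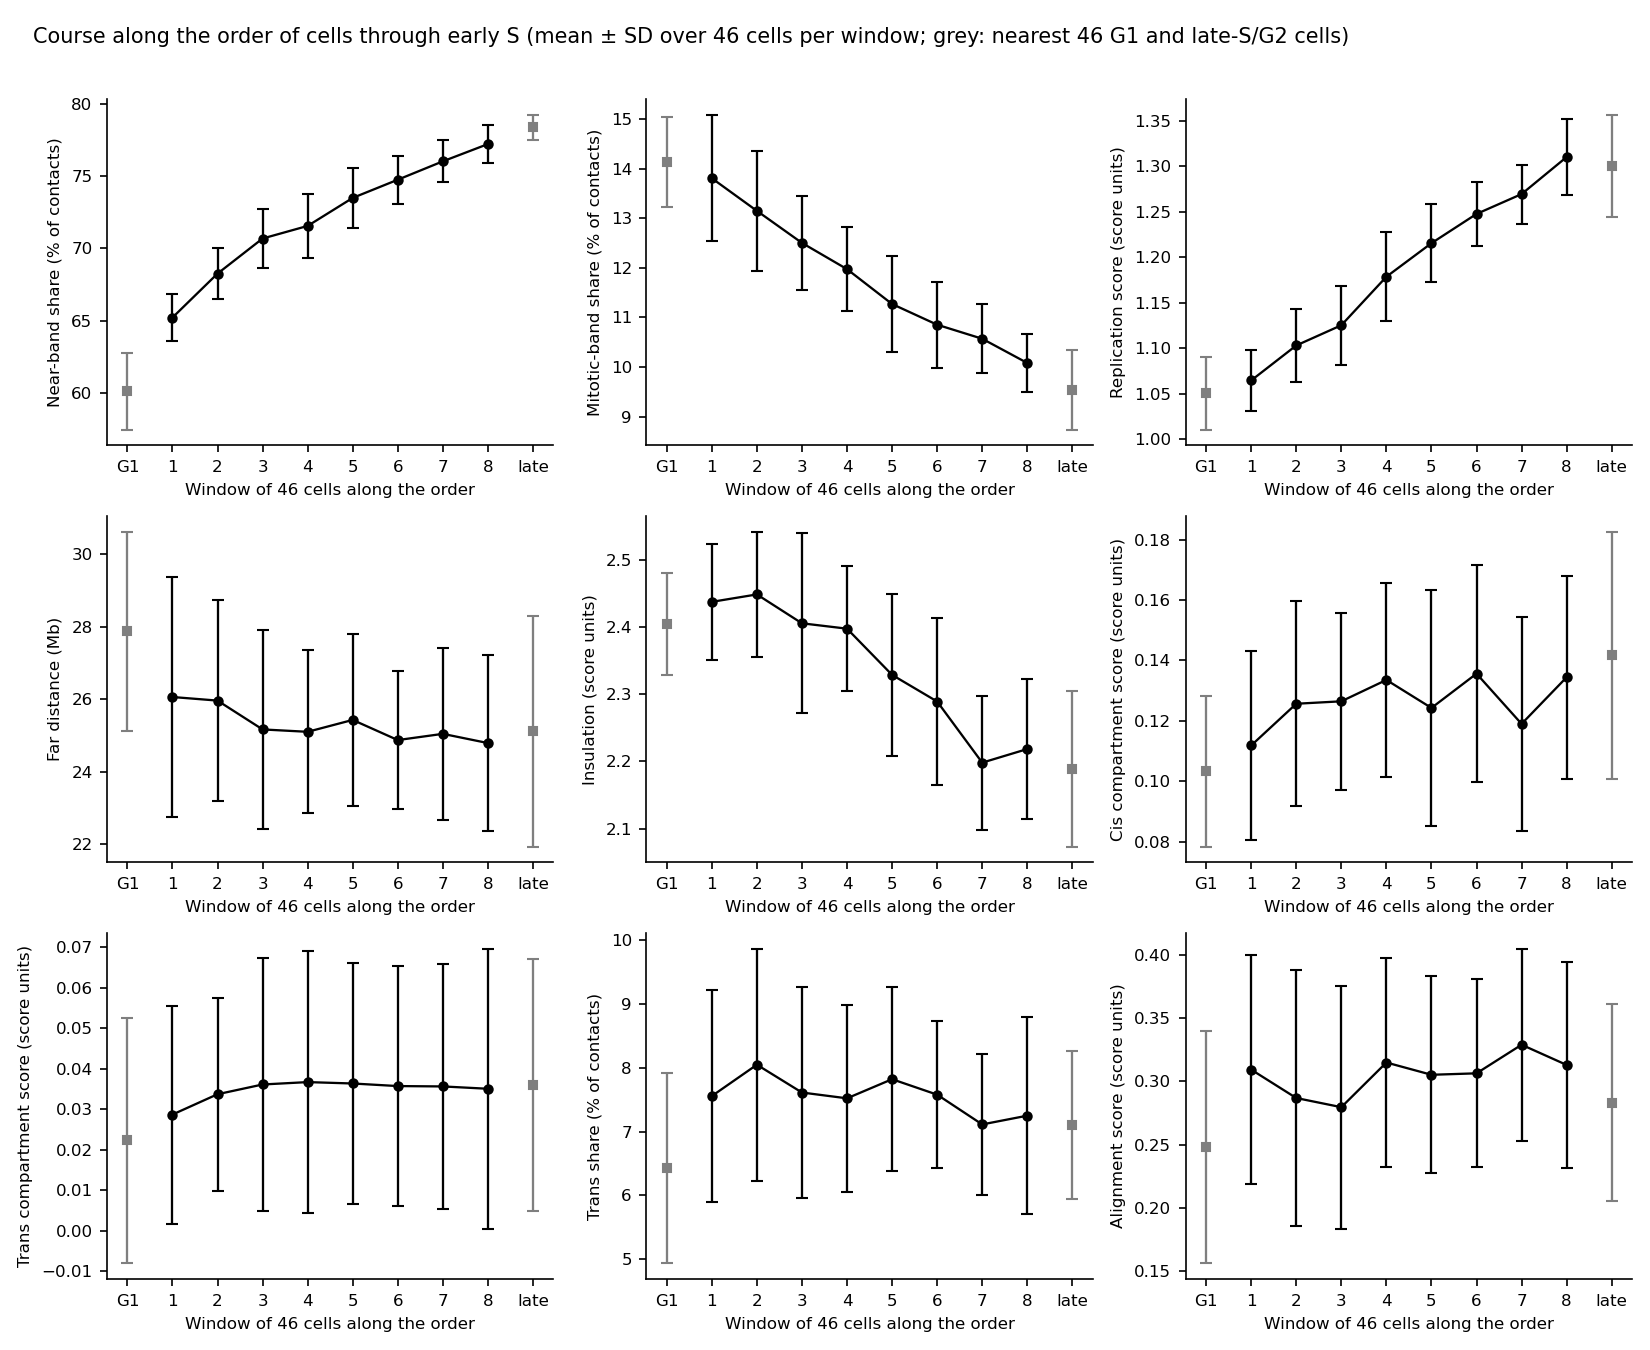
Each panel gives the mean and SD of 1 folding column over windows of 46 cells along the authors' order (horizontal axis), with early S in black and the nearest 46 G1 and late-S/G2 cells in grey. Insulation lies at 2.40 to 2.45 in the first 4 windows and at 2.20 to 2.33 in the last 4, while near-band share and replication score follow the order by construction.

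Within libraries, the later part of early S was set against the earlier part, cut at the median order of 336.5. Of 9 columns tested over 7 libraries by exact two-sided sign flips, 0 (0%) passed after adjustment and 2 had an unadjusted p under 0.05. A column that alone reaches the smallest exact p of 7 libraries cannot pass over 9 columns, whatever its difference. Insulation was lower in the later part in 7 of 7 libraries, 2.26 ± 0.0602 against 2.42 ± 0.0538 (SD over libraries). The difference was -0.155 on average and ran from -0.303 in library 7 to -0.0106 in library 8 (exact p = 0.0156, the smallest that 7 libraries allow, and exact adjusted p = 0.141). In library 8 the earlier and later means were 2.31 and 2.30, with SDs over cells of 0.190 and 0.176, the widest of any library. Its earlier part held the cell of lowest insulation in early S, 1.93. That cell had a replication score of 1.02, below the G1 median, and a near-band share of 75.5%. The part of such cells in the small difference of library 8 was not tested. In libraries 2_14, 3 and 4 the earlier and later means were 2.42 and 2.26, 2.40 and 2.26, and 2.42 and 2.23. In library 5_10 they were 2.43 and 2.27, in 7 they were 2.46 and 2.16 from 12 and 6 cells, and in 9 they were 2.47 and 2.36. Outside library 8, every earlier mean (2.40 to 2.47) lay above every later mean (2.16 to 2.36). Library 1_6 had 4 cells in the later part and was not used.

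The order accounted for 37.9% of the variance of insulation over cells within libraries. It accounted for 1.35% for the far distance, 1.08% for the cis compartment score, 0.824% for the trans share, 0.228% for the trans compartment score and 0.203% for the alignment score. Spearman's rank correlation of insulation with the order lay between -0.75 and -0.39 in the 6 libraries of at least 20 cells, with a median of -0.59. For the trans share it lay between -0.43 and 0.04 and for the cis compartment score between -0.03 and 0.53. The cis compartment score was higher in the later part in 6 of 7 libraries, 0.129 against 0.122 (exact adjusted p = 0.375), and the trans compartment score in 6 of 7, 0.0359 against 0.0326 (exact adjusted p = 0.394). The trans share was 7.61% against 7.67%, lower in 4 of 7 (exact adjusted p = 0.879), and the alignment score 0.301 against 0.282, higher in 4 of 7 (exact adjusted p = 0.394). Contacts per cell were 288427 in the later and 286374 in the earlier part (exact adjusted p = 0.938).

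Among single cells, few pairs of columns went together. Spearman's rank correlation was computed over the cells of each of 6 libraries of at least 20 cells (21 to 98 cells each) for the 45 pairs among the 9 folding columns and contacts per cell. The cells of a library share a lane, and the shares have common denominators, so these correlations are a description. For 38 pairs the median over libraries lay between -0.2 and 0.2. The near-band and mitotic-band shares had a median of -0.82, the near-band share and the replication score 0.64, and the mitotic-band share and the replication score -0.60.

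Insulation went down as the replication score went up, with a median correlation of -0.68. It was -0.75 in 2_14, -0.72 in 3, -0.79 in 4, -0.57 in 5_10 and -0.64 in 9, but -0.12 in library 8, the library with the smallest difference between the parts of early S. With the near-band share, insulation had a median correlation of -0.41 (-0.67 to -0.27). The far distance and the alignment score went in opposite directions, with a median of -0.61 and a range from -0.75 in library 4 to -0.50 in 2_14. Both had little course along the order, with median correlation of -0.13 and -0.01. The trans compartment score had no median correlation beyond -0.1 or 0.1 with any other column, the cis compartment score included (0.07, range -0.12 to 0.15). The median correlation of the trans share was furthest from 0 with the far distance, at 0.14. With contacts per cell, medians lay between -0.18 (insulation) and 0.13 (near-band share).

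**Figure D4:**
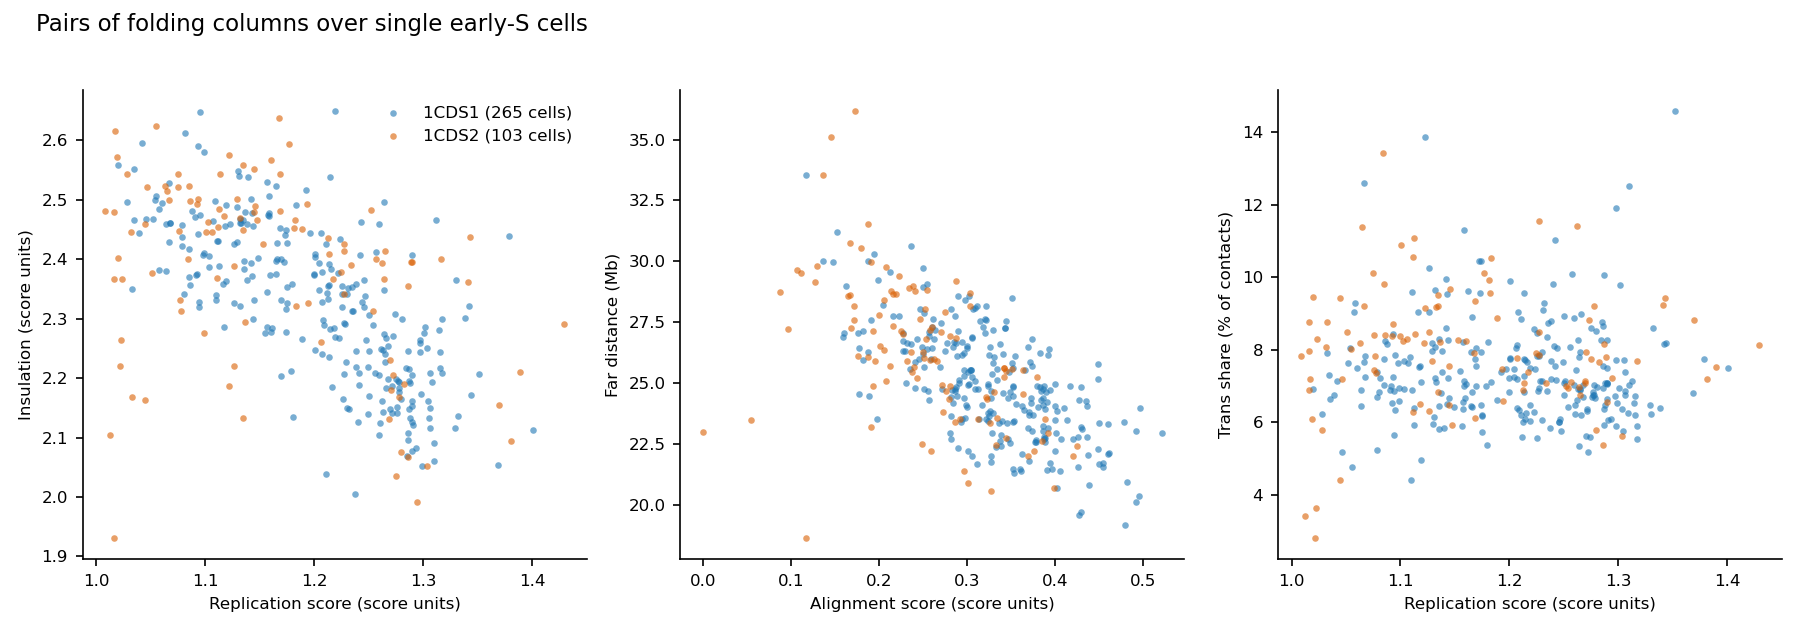
Each point is 1 early-S cell, coloured by its set, with insulation (left) and trans share (right) against the replication score and far distance against the alignment score (middle). Insulation is lower in cells of higher replication score (median correlation -0.68 within libraries) and far distance shorter in cells of higher alignment score (-0.61), while the trans share shows no such course (median correlation -0.07).

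Between the sets 1CDS1 and 1CDS2, no column passed a test, and library means of the alignment score and the far distance were among those that did not overlap. Library means of 2_14, 3 and 4 were set against those of 7, 8 and 9 by an exact two-sided permutation of library labels, which cannot give a p below 0.1 for 3 against 3. So 0 of 13 columns passed, 0 had an unadjusted p under 0.05, and the ranges of 7 of 13 columns (53.8%) did not overlap. The alignment score was 0.329 ± 0.00159 (SD, n = 3) in 1CDS1 and 0.250 ± 0.0160 (n = 3) in 1CDS2 libraries. The far distance was 25 Mb (24.8 to 25.2) against 26.2 Mb (25.5 to 26.8), the cis compartment score 0.128 (0.12606 to 0.130) against 0.121 (0.114 to 0.12599), and the replication score 1.19 (1.19 to 1.2) against 1.16 (1.12 to 1.18). Each had an exact p of 0.1, the smallest possible, and an exact adjusted p of 0.186. The other 3 columns without overlap were contacts per cell (261809 against 336282), the duplicated share (2.76% against 3.37%) and the coverage deviation of chromosomes (0.266 against 0.382). Insulation (2.33 against 2.37), the trans share (7.41% against 7.95%), the near-band share (72.6% against 71.1%), the mitotic-band share (11.7% against 12%) and the trans compartment score (0.0337 against 0.0333) overlapped.

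Library 5_10 holds both sets in 1 lane, 28 1CDS1 and 24 1CDS2 cells, and gave differences of the same direction for these 4 folding columns. It joins cells of more than 1 batch number, and how these divide between the sets is not shown here. Over cells, the alignment score was 0.323 ± 0.0743 (SD) in 1CDS1 and 0.243 ± 0.0811 in 1CDS2 cells. The far distance was 24.8 Mb ± 2.86 and 26.7 Mb ± 2.73, the replication score 1.24 ± 0.0766 and 1.15 ± 0.0911, and the cis compartment score 0.129 ± 0.0338 and 0.121 ± 0.0250. Contacts per cell were 237816 and 223160 there, higher in 1CDS1, while the 1CDS2 libraries had the higher means. The duplicated share turned likewise, with 2.99% in 1CDS1 and 2.24% in 1CDS2 cells of 5_10. The median order of the cells was 406 and 275.5, so the 1CDS2 cells of this library also stood earlier in the phase. Its cells within a set are not replicates, and no test was made on them.

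Compared with 2i, early-S cells in serum had shorter far contacts. The 8 serum libraries were set against 7 libraries of the 2i conditions 1CDU and NoSort by permuting library labels exactly, for 5 columns of shares, counts and distances, in mean and in SD over cells. Of these 10 comparisons 4 (40%) passed. The far distance was 25.5 Mb ± 0.754 (SD, n = 8, 24.6 to 26.8) in serum and 28.5 Mb ± 1.45 (n = 7, 26.9 to 30.6) in 2i, and the library ranges did not overlap (exact p = 0.000155, exact adjusted p = 0.00155). Library 2_14 alone holds both media and counts as serum in the test. Its 41 serum cells had 25.2 Mb ± 2.07 and its 45 2i cells of the condition 1CDU 30.0 Mb ± 3.16 (SD over cells). These cells carry different batch numbers by medium, so batch and medium cannot be told apart there. Within 2i the mean over libraries was 30.0 Mb (29.6 to 30.6, 4 libraries with 2_14) in 1CDU and 27.4 Mb (26.9 to 28.2, 4 libraries) in NoSort. With 1CDU alone (3 libraries), the difference, serum minus 2i, was -4.51 Mb in place of -3.05 Mb (exact adjusted p = 0.0606).

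The near-band and mitotic-band shares, given with no test, were 71.8% and 11.8% in serum. In 2i the near-band share was 69.9% in 1CDU and 72.8% in NoSort libraries, on either side of serum, and the mitotic-band share 11.9% in both. With 1CDU alone the difference in near-band share, serum minus 2i, was 2.01 points, in place of 0.298 over both conditions. The trans share was 7.89% ± 0.806 in serum and 6.98% ± 1.58 in 2i (exact adjusted p = 0.257). It was 8.17% in 1CDU and 5.87% in NoSort libraries, and in library 2_14 it was 7.77% in serum and 7.27% in 2i cells. Without the 2i library 11, whose 9.84% was the highest, the serum value was higher by 1.38 points (exact adjusted p = 0.0333). The cell-to-cell SD of the trans share was 1.56 in serum and 1.6 percentage points in 2i (exact adjusted p = 0.783). The SD of the far distance was 2.61 Mb in serum and 3.13 Mb in 2i (exact adjusted p = 0.126). Without serum library 7, whose SD was 4.00 Mb, the difference, serum minus 2i, was -0.72 Mb in place of -0.52 Mb (exact adjusted p = 0.00583). It was -0.63 Mb with a minimum of 20 cells (exact adjusted p = 0.00437) and -0.83 Mb with all 2i conditions (exact adjusted p = 0.0110).

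Depth differed between the media. Contacts per cell were 272381 ± 72476 in serum and 127433 ± 28192 in 2i (exact adjusted p = 0.00363), and their SD over cells was 150569 against 80649 (exact adjusted p = 0.00363). The share of fragments without digestion was 30.9% ± 2.19 against 42.2% ± 8.30 (exact adjusted p = 0.00971). In cells between the 25th and 75th percentile of serum early-S contacts, 131186 to 385336, the difference in far distance, serum minus 2i, was -3.41 Mb with 5 serum libraries (exact adjusted p = 0.0794). The part of the digestion share in the far distance was not tested.

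Haploid H129-1 cells in serum gave 305 early-S cells in 4 libraries of at least 10 cells. They are shown side by side with no test, since the line and the label G1/S differ as well and cannot be told apart. Their far distance was 27.6 Mb (27.3 to 28.2), their trans share 11.1% (10.5% to 11.3%), their near-band share 69.5% (68.5% to 70.1%) and their contacts per cell 165028. The SD of the trans share over cells was 3.41 percentage points, against 1.56 in diploid serum libraries.

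**Figure D5:**
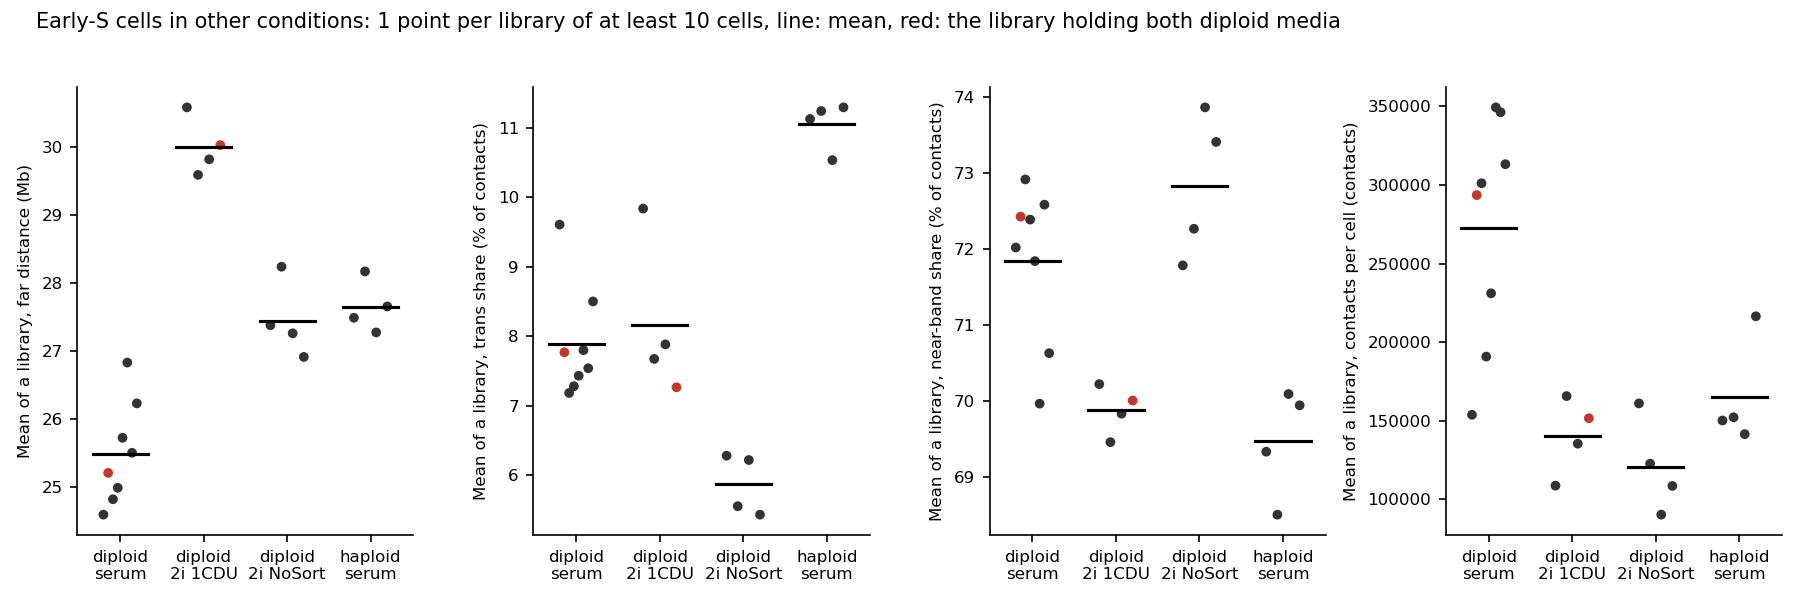
Each point is the mean over the early-S cells of 1 library with at least 10 such cells, by line and condition on the horizontal axis, with lines for group means and red for library 2_14, which holds both diploid media. The 8 diploid serum libraries have the shortest far distance (24.6 to 26.8 Mb), below the 26.9 to 30.6 Mb of 2i libraries, and the haploid libraries the highest trans share (10.5% to 11.3%).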

How the data were processed

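Reads were aligned with Bowtie2 to mm9, per the submitters' processing notes. The deposited tables list 1 cell per row. The number of contacts is a count, per the file headers. Deposited shares hold a fraction between 0 and 1, printed in percent, with band limits not stated. Each deposited score has no stated scale. Other deposited columns are the far distance in bp (shown in Mb), the authors' order, phase, condition, batch number and quality flag.

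Cells were joined to libraries through batch numbers, which matched the deposited cell list for all 1175 serum cells. Values are means or SDs over the cells of a library with at least 10 cells of a phase (5 per part of early S, 20 for a correlation). Differences within libraries were tested by exact sign flips and groups of libraries by exact permutation of labels, two-sided, with Benjamini-Hochberg adjustment within each comparison. The rule on names was that every folding column is reported, and no gene, as the tables hold none. The cells and comparisons were chosen with earlier results of these data known. Single values of the share without digestion and the coverage deviation are not given for phases and parts of early S. The nuclear RNA libraries were not used here.

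Alternatives were other minimums, medians or interquartile ranges, cells of middle depth, other cuts of the order, other 2i conditions and leaving out each library. The spread around a line along the order, the adjustment over columns the order does not use, the course within each set, both media within library 2_14 and the haploid values were added after seeing the data. The number of libraries limits the precision. The tests were tested on simulated data. Tests ran in scipy 1.17.1, tables in pandas 2.3.3 and numpy 2.4.6, figures in matplotlib 3.10.9, all under Python 3.11.15.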

Additional observations from a re-analysis of the deposited data

Results flagged for a closer look

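Library means, SDs and differences of 7 or 8 libraries were examined for a library that stands apart (Dixon's criterion) in 65 sets, and 5 such values were found, while chance gives about 1 in 20 groups. Library 7 had the highest mitotic-band share, 12.4% against 11.9% in the next library, and the lowest replication score, 1.12 against 1.18. Library 9 had the highest insulation, 2.43 against 2.36. The far distance of the later minus the earlier part of early S was -2.58 Mb in library 7, against -0.611 Mb in the next. Contacts per cell, early S minus G1, were -43287 in library 5_10 and above 0 in the other 6 libraries examined, the lowest of them at 5960. Library 1_6, not examined because it holds 7 G1 cells, also lay below 0, at -32441.

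Between the later and the earlier part of early S, 2 of 13 columns rose in all libraries of 1 set and fell in all of the other set. This was not tested. The alignment score was lower in the later part in the 3 1CDS1 libraries (-0.00766 on average) and higher in the 3 1CDS2 libraries (0.0353), a difference of -0.0430. Contacts per cell, later minus earlier, were 39818 and -33047, a difference of 72865.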

How the results depend on the processing

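Of the differences in mean between phases, 10 passed. With a minimum of 20 cells (3 or 5 libraries) and with cells of middle depth (3 libraries) 0 passed, since so few libraries allow no exact p small enough, and leaving out 1 library left 0 to 0. With medians 7 passed, and apart from the far distance from G1, given as description, the cis compartment score into late S/G2 (0.0151, exact adjusted p = 0.0764) and the duplicated share (0.267 points, exact adjusted p = 0.0938) no longer did. Of the comparisons with 2i, 4 passed, 0 with cells of middle depth, 0 with 1CDU alone, 5 with all 2i conditions, 5 with a minimum of 20 cells and 4 to 5 without 1 library. For SDs between phases, parts of early S and sets the count was 0 under every alternative run. Pearson's r or a minimum of 40 cells moved no median correlation by more than its SD over libraries.

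Values that had not passed changed sign in places, and the cause was not tested. As log2 ratios of SDs against G1, the trans share was -0.14 with 20 cells and -0.50 at middle depth, where insulation was -0.062 and the trans compartment score 0.068. Around the line along the order, the far distance was 0.46 and the alignment score 0.17. Without 1 library the trans share lay between -0.058 and 0.12. Against late S/G2, the far distance was -0.17 with 20 cells and between -0.13 and 0.11 without 1 library, and the replication score -0.65 around the line. Alignment and contacts were 0.14 and -0.030 by interquartile range, and -0.10 to 0.055 and -0.0024 to 0.14 without 1 library. In means from early S to late S/G2, the duplicated share was 0.105 with medians, 0.152 at middle depth and -0.109 to 0.0170 without 1 library, and contacts were 25461 at middle depth. Between parts of early S, later minus earlier, contacts were -12294 to 8826 and the trans share -0.217 to 0.0965 without 1 library. Between sets, 1CDS2 minus 1CDS1, the trans compartment score was 0.00119 with 20 cells, 0.00124 at middle depth, 0.00437 with library 5_10 split and -0.00184 to 0.00119 without 1 library. At middle depth the mitotic-band share was -0.142 and the duplicated share -0.000331. Between media, serum minus 2i, the SD of the duplicated share was -0.0422 with 20 cells, -0.445 with interquartile ranges, -0.417 at middle depth and -0.0658 to 0.161 without 1 library. The trans share was -0.0962 at middle depth and -0.575 with 1CDU alone, its SD 0.00353 with 1CDU alone and -0.105 to 0.0206 without 1 library. The SD of the share without digestion was 0.138 at middle depth, and the duplicated share 1.03 with 1CDU alone.

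No paired analysis was possible because the numbers that diploid, haploid and RNA samples share name different libraries. This concerns those groups only, since phases and parts of early S were compared within libraries. Among the folding columns, cells of few contacts limit the compartment scores most.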
